A study of Homo sapiens with 9 samples.

Results

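The 9 genes described here encode parts of the HLA class I molecules of human cells and of the machinery that loads them with peptide. They were chosen by name, with Ensembl identifiers translated to symbols, from a count matrix of 60660 genes: the heavy chains *HLA-B*, *HLA-C*, *HLA-E* and *HLA-F*, the light chain *B2M*, the peptide transporter genes *TAP1* and *TAP2*, the loading chaperone *TAPBP* and the transactivator *NLRC5*. All 9 were among the 17794 genes that passed the filter on low counts. RNA-seq had been done on OVCAR3, a human epithelial ovarian cancer cell line, to ask which transcripts follow the level of *CTCFL*, also called BORIS, a paralog of the chromatin insulator CTCF that is normally restricted to the testis and is expressed in many tumours. The 9 libraries comprised 3 biological replicates in each of 3 groups. Control cells had received a LacZ plasmid, and their label gives no *CTCFL* treatment. CTCFL-OE cells had been transiently transfected with 2 µg of a plasmid holding the *CTCFL* open reading frame and were harvested after 48 h. CTCFL-KD cells had been treated with siRNAs, and their RNA came from an earlier knockdown experiment. Each replicate was a pool of 3 technical replicates, all groups were the same cell line, and both comparisons share the Control libraries. A lower *CTCFL* level and the handling of the CTCFL-KD cells, with siRNA in place of plasmid, cannot be told apart in this design.

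HLA class I molecules show peptides from inside the cell to cytotoxic T cells and to natural killer cells. Proteasomes cut proteins into peptides, and immune subunits can replace the constitutive catalytic ones. The transporter formed by TAP1 and TAP2 carries the peptides into the endoplasmic reticulum, where tapasin, the product of *TAPBP*, holds the empty heavy chain next to the transporter until a peptide fits. As a rule, a classical heavy chain leaves for the cell surface with B2M and a peptide. NLRC5 does not bind DNA by itself and joins the RFX, CREB and NF-Y factors bound at the SXY module of class I promoters, and interferon-gamma and NF-kB act on sites just upstream. Tumours often lose parts of this pathway and so escape T cells.

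The libraries held between 14332622 and 24490080 counts, and levels are given as counts per 1000000 (CPM), scaled by the trimmed mean of M-values (TMM). The 3 counts that a count of 0 allows were worth 0.117 to 0.271 CPM. *CTCFL* itself had 6, 9 and 10 counts in Control, 36, 34 and 72 in the CTCFL-OE cells and 0, 1 and 0 in the CTCFL-KD cells, so the groups followed their labels. In the CTCFL-OE cells its log2 fold change was 2.73 ± 0.48 (SE, n = 3 against 3; adjusted p = 0.0287, edgeR). From pooled counts it was 17.6-fold lower in CTCFL-KD, with an exact interval of 2.89 to 724 that covers counting error only. CTCFL-KD replicate 1 stood apart: its log2 ratio to the mean of all 9 libraries fell with transcript length (Spearman's rho of -0.487 across 12995 genes). The median ratio was 0.76 in the quintile with the shortest transcripts and -0.54 in that with the longest. Beside the results on the CTCFL-KD cells, values without it are therefore given for the 9 genes, and counts without it for most of the gene lists. Over those lists, 43 of the 45 genes called in CTCFL-KD kept their call and direction without it, and *MICA* and *HLA-H* lost theirs. The numbers of list genes called were 30, 30 and 29 without Control replicates 1, 2 and 3. Of all genes, 15.0% to 15.3% were then called higher and 10.8% to 11.5% lower, against 21.4% and 16.8% with all 9 libraries. The mitochondrial share of the counts was 6.16% to 6.52% in Control, 7.4% to 14.9% in the CTCFL-OE cells and 7.8% to 11.8% in the CTCFL-KD cells. All 10 markers of ovarian carcinoma epithelium were above 3 counts in each group, with a summed level of 5370 to 5480 CPM in Control, 4670 to 5070 in the CTCFL-OE cells and 9160 to 15000 in the CTCFL-KD cells. The 14 immune cell markers summed to 1.70 to 2.45 CPM in Control, 2.10 to 4.06 in the CTCFL-OE cells and 4.27 to 6.13 in the CTCFL-KD cells, so that every CTCFL-KD library was above all others, and *CD3D*, *CD2* and *MS4A1* were at 0 in all 9 libraries. Markers of fibroblasts summed to 25.0 to 44.2 CPM and those of endothelium to 8.41 to 20.2 CPM over the 9 libraries, both higher in every CTCFL-KD library than in any Control library. The part of these markers in the results below was not tested.

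The genes lie at 3 loci (GRCh38, GENCODE release 44). The MHC on chromosome 6 holds *HLA-F* (chr6:29722775-29738528, + strand), *HLA-E* (chr6:30489509-30494194, +), *HLA-C* (chr6:31268749-31272130, -), *HLA-B* (chr6:31353872-31367067, -), *TAP2* (chr6:32821833-32838739, -), *TAP1* (chr6:32845209-32853816, -) and *TAPBP* (chr6:33299694-33314284, -). *B2M* is on chromosome 15 (chr15:44711358-44718851, +) and *NLRC5* on chromosome 16 (chr16:56989485-57083531, +). RefSeq start windows (GRCh38.p14) were matched for 7 of the 9. The 250 reference bases before the start are printed for *HLA-C*, *HLA-B*, *B2M* and *TAPBP*, whose transcripts rose in CTCFL-KD, and for *TAP1* and *TAP2*, whose transcripts did not pass the test. *TAP1* also had a further RefSeq window (chr6:32852762-32853011, -), which held no match to any pattern below and is not printed. The windows read 5′ to 3′ on the strand of the gene. Capitals mark every match, on either strand, to the CRE core (TGACG), the CCAAT box, a 9-letter interferon response pattern (GAANNGAAA), the 10-letter form with 1 more A before the NN (GAAANNGAAA), the NF-kB consensus and the core of the CTCF motif (AGGGGGC). Matches overlap in places, and the letters were chosen with the sequences in view.

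HLA-C, chr6:31272093-31272342, -: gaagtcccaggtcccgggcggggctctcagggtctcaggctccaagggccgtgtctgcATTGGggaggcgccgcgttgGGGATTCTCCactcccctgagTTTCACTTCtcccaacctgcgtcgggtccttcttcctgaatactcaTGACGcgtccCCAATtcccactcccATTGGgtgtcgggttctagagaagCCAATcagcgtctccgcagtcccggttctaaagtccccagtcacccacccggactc
HLA-B, chr6:31357180-31357429, -: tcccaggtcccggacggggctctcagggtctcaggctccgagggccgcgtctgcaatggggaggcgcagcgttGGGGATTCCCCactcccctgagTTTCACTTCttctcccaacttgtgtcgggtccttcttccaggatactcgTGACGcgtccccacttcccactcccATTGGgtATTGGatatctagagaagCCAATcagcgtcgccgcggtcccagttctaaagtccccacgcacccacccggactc
B2M, chr15:44711267-44711516, +: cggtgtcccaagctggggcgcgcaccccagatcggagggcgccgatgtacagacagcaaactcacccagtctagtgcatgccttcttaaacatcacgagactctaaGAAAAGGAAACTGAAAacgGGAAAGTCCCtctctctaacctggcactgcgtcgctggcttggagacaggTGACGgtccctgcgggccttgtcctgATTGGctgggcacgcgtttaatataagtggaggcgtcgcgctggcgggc
TAPBP, chr6:33314079-33314328, -: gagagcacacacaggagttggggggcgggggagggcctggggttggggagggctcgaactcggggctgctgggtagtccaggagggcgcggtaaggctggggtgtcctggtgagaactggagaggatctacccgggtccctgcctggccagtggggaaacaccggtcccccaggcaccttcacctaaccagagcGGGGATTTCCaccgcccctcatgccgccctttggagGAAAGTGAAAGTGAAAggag
TAP1, chr6:32853705-32853954, -: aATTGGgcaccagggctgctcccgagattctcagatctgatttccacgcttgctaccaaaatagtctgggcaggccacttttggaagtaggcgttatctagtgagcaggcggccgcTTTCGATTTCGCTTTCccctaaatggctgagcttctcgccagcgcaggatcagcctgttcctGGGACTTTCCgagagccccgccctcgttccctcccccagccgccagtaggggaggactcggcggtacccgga
TAP2, chr6:32838740-32838989, -: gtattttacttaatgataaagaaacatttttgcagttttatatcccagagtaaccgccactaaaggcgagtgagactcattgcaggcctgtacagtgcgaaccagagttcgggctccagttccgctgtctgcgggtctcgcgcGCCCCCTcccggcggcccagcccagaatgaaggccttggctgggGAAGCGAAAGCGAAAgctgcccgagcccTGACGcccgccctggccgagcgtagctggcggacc

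The *HLA-C* and *HLA-B* windows were 89.0% identical in a global alignment and both carried an NF-kB match, a 9-letter interferon match, a CRE core and CCAAT boxes in this order, with 1 further CCAAT box ahead of them in *HLA-C*. *B2M* showed no such likeness to *HLA-C* (49.2% identity, where all pairs other than those among the heavy chains ranged from 47.3% to 51.9%), but held interferon and NF-kB matches followed by a CRE core and a CCAAT box. With the printed window alone taken for *TAP1*, the CRE core was found in 4 of the 7 genes (*HLA-B*, *HLA-C*, *B2M* and *TAP2*) and in 21.2% of all 35116 RefSeq windows, where a gene may have several, and the CCAAT box in 5 of 7 against 32.0%. The 9-letter interferon pattern was found in 3 of 7 against 6.56%, and the 10-letter pattern in 5 of 7 against 3.02%. The NF-kB consensus was found in 5 of 7 against 5.21%. The CTCF core was present in the *TAP2* window alone, against 13.3% of all windows. *TAPBP* had a pair of overlapping interferon matches and an NF-kB match, without a CRE core or a CCAAT box. These matches describe letters in the reference, not bound sites, and the alleles of OVCAR3 were not read.

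*NLRC5*, the transactivator, was the gene with the largest change of the 9 in CTCFL-KD. It had 6.56, 5.36 and 4.61 CPM in Control, 5.02, 7.06 and 7.19 in the CTCFL-OE cells and 1.26, 0.476 and 0.986 in the CTCFL-KD cells. All CTCFL-KD libraries were below all others, while CTCFL-OE and Control overlapped. The CTCFL-KD cells had 6.21-fold less *NLRC5* RNA than Control (log2 fold change of -2.63 ± 0.33 SE, n = 3 against 3; adjusted p = 0.000189), from 14, 8 and 18 counts against 131, 138 and 91. Without CTCFL-KD replicate 1 the value was -2.88 (adjusted p = 8.763e-05), and the call held in all 19 alternatives that gave a value. In CTCFL-OE the log2 fold change was 0.22, with a 95% interval of -0.38 to 0.82 and an adjusted p of 0.706. The CTCFL-KD cells also had less than the CTCFL-OE cells (-2.85 ± 0.33, adjusted p = 0.000167).

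*HLA-C* and *HLA-B* rose in CTCFL-KD, where *NLRC5* fell. *HLA-C*, a classical heavy chain that presents peptides and is a major ligand of killer cell immunoglobulin-like receptors, had 168, 162 and 170 CPM in Control, 139, 203 and 287 in the CTCFL-OE cells and 419, 319 and 354 in the CTCFL-KD cells. The CTCFL-KD libraries were all above the rest, and the CTCFL-OE libraries lay on both sides of Control. *HLA-C* rose 2.19-fold in CTCFL-KD (log2 of 1.13 ± 0.25 SE, n = 3 against 3; adjusted p = 0.00524). The log2 fold change was 1.02 without CTCFL-KD replicate 1 and 0.71 when length and GC content of the transcripts were corrected for, and the call held in all 20 alternatives.

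*HLA-B*, also a classical heavy chain, had 24.9, 27.2 and 27.2 CPM in Control, 26.8, 28.8 and 52.1 in the CTCFL-OE cells and 77.1, 36.5 and 38.0 in the CTCFL-KD cells. CTCFL-KD replicate 1 stood far above the other CTCFL-KD libraries, and CTCFL-OE replicate 3 was also above them. *HLA-B* rose in CTCFL-KD (log2 of 0.93 ± 0.33 SE, n = 3 against 3; adjusted p = 0.043), but the value was 0.50 (adjusted p = 0.11) without CTCFL-KD replicate 1, 0.44 (adjusted p = 0.103) with the length and GC correction and 0.90 (adjusted p = 0.058) with the replicate block. The level was higher in CTCFL-KD in all 20 alternatives, but the call held in 10 of them, and it was also lost without each Control library (adjusted p between 0.103 and 0.12) and without CTCFL-OE replicates 1 and 2.

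*HLA-E*, a non-classical heavy chain recognised by NKG2A on natural killer cells, had 102, 102 and 96.7 CPM in Control, 80.7, 96.6 and 153 in the CTCFL-OE cells and 180, 142 and 145 in the CTCFL-KD cells. Each CTCFL-KD library was above each Control library, but CTCFL-OE spanned both. Its log2 fold change in CTCFL-KD was 0.64 ± 0.23 (SE, n = 3 against 3) and missed the threshold (adjusted p = 0.0516). It passed in 7 of 20 alternatives, among them DESeq2 on all 9 libraries (0.59, adjusted p = 0.0462) and the fit without CTCFL-OE replicate 3 (0.62, adjusted p = 0.0153), and was 0.52 (adjusted p = 0.0702) without CTCFL-KD replicate 1. It was 0.38 (adjusted p = 0.106) with the length and GC correction and 0.38 (adjusted p = 0.0979) with that and the replicate block.

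*HLA-F*, a non-classical heavy chain with little surface expression, was near the limit of counting. It had 17, 17 and 12 counts in Control, 5, 13 and 19 in the CTCFL-OE cells and 11, 7 and 12 in the CTCFL-KD cells, or 0.416 to 0.992 CPM in CTCFL-KD against 0.608 to 0.851 in Control. The groups overlapped. Without CTCFL-KD replicate 1 the log2 fold change in CTCFL-KD was -0.37 (adjusted p = 0.605). With all libraries the 95% interval was wide, from -1.23 to 1.06. This interval does not exclude a change of 2-fold in either direction.

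*B2M* encodes the light chain that pairs with class I heavy chains. It had 311, 323 and 297 CPM in Control, 297, 277 and 556 in the CTCFL-OE cells and 604, 542 and 582 in the CTCFL-KD cells. CTCFL-OE replicate 3 reached the range of the CTCFL-KD libraries, while the other CTCFL-OE libraries were at or below Control. *B2M* rose 1.86-fold in CTCFL-KD (log2 of 0.89 ± 0.26 SE, n = 3 against 3; adjusted p = 0.02) and stayed close to that without CTCFL-KD replicate 1 (0.86, adjusted p = 0.0178) and with the length and GC correction (0.9955, adjusted p = 0.00861). The call was lost when any single Control library was left out (adjusted p between 0.063 and 0.0794).

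*TAP1* and *TAP2*, the subunits of the peptide transporter, did not pass the test in either comparison with Control. *TAP1* had 8.16, 6.84 and 7.09 CPM in Control, 5.97, 9.35 and 14.9 in the CTCFL-OE cells and 7.85, 7.37 and 7.34 in the CTCFL-KD cells. *TAP2* had 12.4 CPM in every Control library, 11.4, 18.1 and 25.4 in the CTCFL-OE cells and 16.2, 12.4 and 12.7 in the CTCFL-KD cells. The CTCFL-KD libraries lay within the Control range for *TAP1*, while for *TAP2* they lay at it or above it, and the CTCFL-OE libraries fell on both sides of Control for both genes. In CTCFL-KD the 95% interval of the log2 fold change was -0.60 to 0.66 for *TAP1* and -0.43 to 0.72 for *TAP2*, with adjusted p of 0.944 and 0.681. Without CTCFL-KD replicate 1 the values were 0.0042 and 0.021 (adjusted p = 0.992 and 0.956). In CTCFL-OE their fold changes of 0.45 and 0.55 did not pass (adjusted p = 0.431 and 0.293), but without CTCFL-OE replicate 1 they were 0.71 (adjusted p = 0.0817) and 0.80 (adjusted p = 0.0478) and passed.

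*TAPBP*, the tapasin gene, had 117, 113 and 119 CPM in Control, 87.5, 125 and 187 in the CTCFL-OE cells and 311, 178 and 184 in the CTCFL-KD cells. It rose 1.92-fold in CTCFL-KD (log2 of 0.94 ± 0.29 SE, n = 3 against 3; adjusted p = 0.0262). CTCFL-KD replicate 1 carried the highest value, and without it the log2 fold change was 0.64 (adjusted p = 0.0488). The highest CTCFL-OE library was above the other CTCFL-KD libraries. As with *B2M*, the call was lost when any single Control library was left out (adjusted p between 0.0758 and 0.0861).

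**Figure D1:**
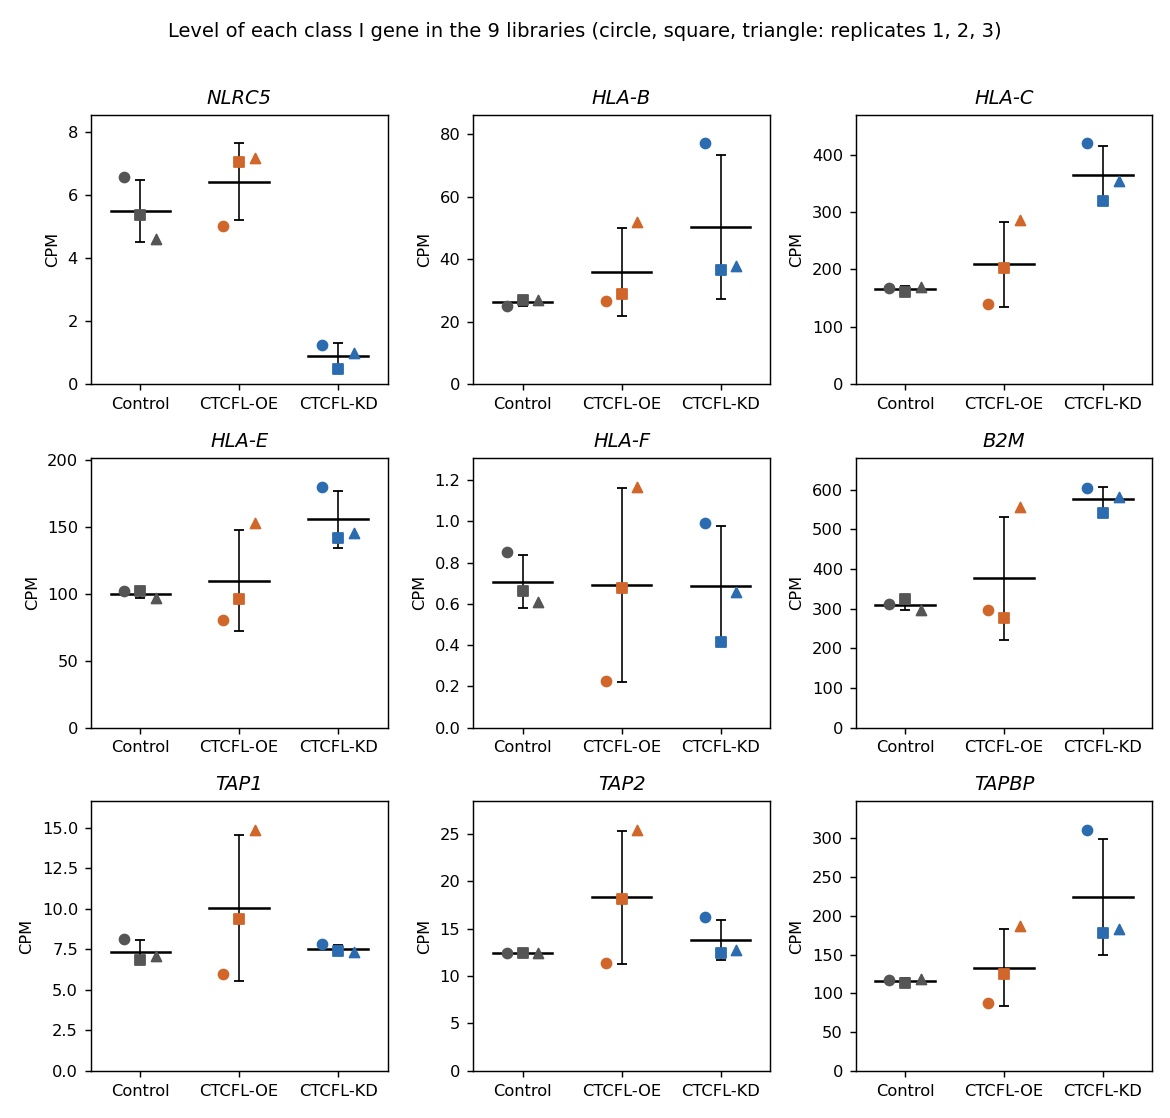
TMM-scaled CPM (vertical axis, from 0) of the 9 genes in the 3 libraries of each group. Points are libraries, horizontal lines are group means and error bars are SD (n = 3); *NLRC5* in CTCFL-KD lies between 0.476 and 1.26 CPM, *HLA-C* and *B2M* in CTCFL-KD lie above every Control library, and CTCFL-OE replicate 3 is the highest CTCFL-OE library for all 9 genes.

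In CTCFL-KD, then, 4 of the 9 genes rose (*HLA-B*, *HLA-C*, *B2M* and *TAPBP*; 44.4%, where 21.4% of all genes tested rose) and 1 fell (*NLRC5*; 11.1%, where 16.8% of all genes tested fell). The median log2 fold change of the 9 was 0.64, against 0.08 over all genes tested. Of the 9, *HLA-C* and *NLRC5* were DEGs, with a log2 fold change beyond 1 and an adjusted p under 0.05, as were 23.2% of all genes tested. Without CTCFL-KD replicate 1, 3 of the 9 rose and 1 fell, where 26.2% of the 18393 genes then tested rose and 23.7% fell. Without any single Control library, *HLA-C* alone rose and *NLRC5* alone fell. Of all genes, 15.0% to 15.3% then rose and 10.8% to 11.5% fell, so the excess of higher calls was gone. In CTCFL-OE none of the 9 passed an adjusted p of 0.1 by edgeR, none had an unadjusted p under 0.05 and DESeq2 called 0 as well, while 1.99% of all genes tested were called higher, 1.16% lower and 2.07% as DEGs. The median log2 fold change of the 9 in CTCFL-OE was 0.28, against -0.01 over all genes tested. Between CTCFL-KD and CTCFL-OE directly, *HLA-C* was higher (0.80 ± 0.25, adjusted p = 0.0364) and *NLRC5* lower, where 15.3% of all genes were higher and 11.5% lower. *TAPBP*, *B2M* and *HLA-E* did not pass in that comparison (adjusted p = 0.0787, 0.102 and 0.132), but passed without CTCFL-OE replicate 3. *HLA-C* lost its call there in 9 of 20 alternatives.

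**Figure D2:**
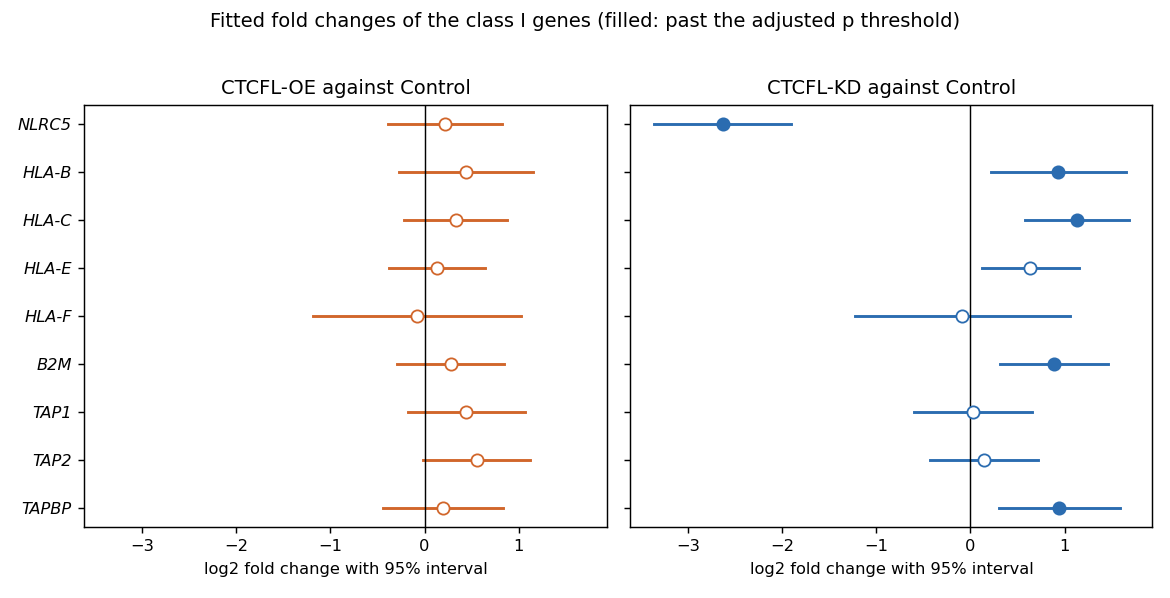
Log2 fold change against Control (horizontal axis) of each gene in CTCFL-OE and CTCFL-KD. Points are edgeR estimates, lines are 95% intervals and filled points passed the adjusted p threshold (0.1 in CTCFL-OE, 0.05 in CTCFL-KD); all CTCFL-OE intervals span 0, and in CTCFL-KD *NLRC5* at -2.63 lies opposite to *HLA-C* at 1.13.

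The spread within the groups was not even. CTCFL-OE replicate 3 had the highest level of its group for all 9 genes, where it was highest for 31.8% of all genes tested, and CTCFL-OE replicate 1 had the lowest for 8 of 9, where it was lowest for 40.3%. CTCFL-OE replicate 3 also had the most *CTCFL* (4.43 CPM, against 1.64 and 1.78) and the largest mitochondrial share (14.9%). CTCFL-KD replicate 1 was the highest of its group for all 9, where it was highest for 44.7% of all genes tested. The part of *CTCFL* level, mitochondrial share and library quality in this spread was not tested.

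Levels were compared between genes per kilobase of the canonical transcript. In Control, *B2M* was highest at 329 ± 14.2 CPM per kb (SD, n = 3), followed by *HLA-C* at 108 ± 2.82, *HLA-E* at 39.4 ± 1.22, *TAPBP* at 33.7 ± 0.90, *HLA-B* at 17.2 ± 0.83, *TAP1* at 2.74 ± 0.26, *TAP2* at 2.20, *NLRC5* at 0.813 ± 0.145 and *HLA-F* at 0.477 ± 0.087. No neighbours in this order overlapped in their libraries. In CTCFL-OE the order of the means was the same, but *HLA-E* overlapped *TAPBP*, *TAPBP* overlapped *HLA-B*, *TAP1* overlapped *TAP2* and *NLRC5* overlapped *HLA-F*. In CTCFL-KD, *TAPBP* (65.0 ± 21.8) and *HLA-E* (61.1 ± 8.32) overlapped and stood in the opposite order, and *NLRC5* (0.134 ± 0.059) was last, below *HLA-F* (0.465 ± 0.196) in every library.

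The summed level of the 4 heavy chains was 165 ± 1.73 CPM per kb in Control, 203 ± 71.1 in the CTCFL-OE cells and 331 ± 56.1 in the CTCFL-KD cells (SD, n = 3). The ratio of *B2M* to that sum was 1.99 ± 0.11 in Control, 1.97 ± 0.37 in the CTCFL-OE cells and 1.87 ± 0.21 in the CTCFL-KD cells, and the libraries of the 3 groups overlapped. The ratio of *HLA-C* to *HLA-E* was 2.75 ± 0.15 in Control, 3.14 ± 0.31 in the CTCFL-OE cells and 3.86 ± 0.15 in the CTCFL-KD cells, where the lowest library (3.72) was above the highest of Control (2.90). *HLA-C* made up 65.5% of the sum in Control and 71.6% in CTCFL-KD, and *HLA-E* 23.8% and 18.6%, without overlap of the libraries in either case. The ratio of *TAPBP* to the mean of *TAP1* and *TAP2* was 13.7 ± 0.66 in Control, 11.2 ± 0.67 in the CTCFL-OE cells and 24.4 ± 5.78 in the CTCFL-KD cells, with no overlap between the groups. *TAP2* over *TAP1* was 0.807 ± 0.074, 0.879 ± 0.059 and 0.870 ± 0.099, with overlap. These ratios are given as a description, without a test.

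**Figure D3:**
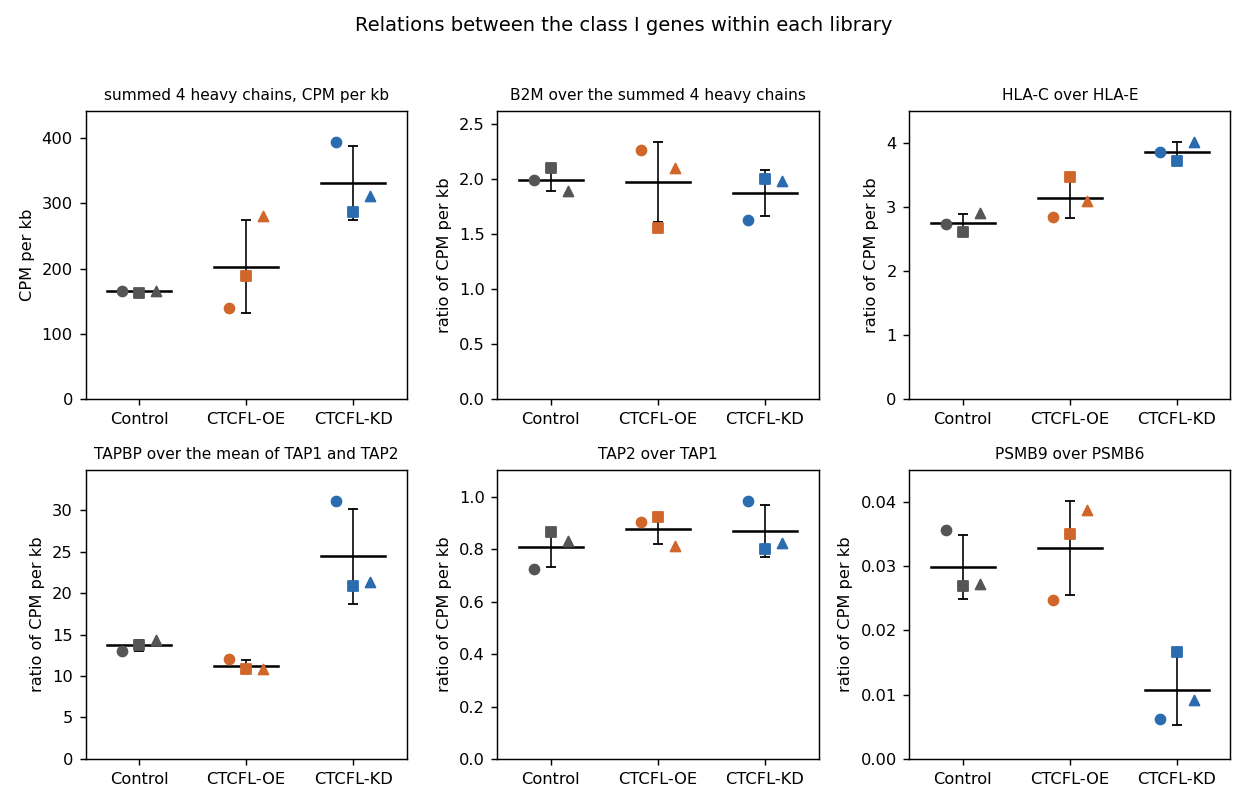
Summed heavy chains in CPM per kb and 5 ratios of CPM per kb (vertical axes, from 0) in each library of the 3 groups. Points are libraries (circle, square and triangle for replicates 1, 2 and 3), lines are means and error bars are SD (n = 3); the ratio of *B2M* to the heavy chains overlaps between groups, while *HLA-C* over *HLA-E* and *TAPBP* over the transporter genes are highest in all CTCFL-KD libraries.

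The rest of the class I pathway was read from lists of named genes. Of the 6 immunoproteasome and proteasome activator genes, 3 fell in CTCFL-KD and none rose, where 16.8% of all genes fell and 21.4% rose, with a median log2 fold change of -0.58 against 0.08 over all genes. *PSMB9*, an immune catalytic subunit whose gene span (chr6:32844136-32859851) holds *TAP1* on the opposite strand without a shared exon, had 3.06, 2.14 and 2.33 CPM in Control, 2.05, 2.40 and 2.34 in the CTCFL-OE cells and 0.992, 0.951 and 0.493 in the CTCFL-KD cells. Its CTCFL-KD libraries were all below the others (log2 of -1.65 ± 0.31 SE, adjusted p = 0.00196), and the call held in all 19 alternatives that gave a value, while *TAP1* did not pass. *PSMB10*, another immune subunit, fell by 0.69 (adjusted p = 0.0476, held in 11 of 20 alternatives) and the activator subunit *PSME3* fell by 0.83 (adjusted p = 0.00185). The ratio of *PSMB9* to its constitutive counterpart *PSMB6* went from 0.0299 ± 0.0049 in Control to 0.0107 ± 0.0054 in CTCFL-KD (SD, n = 3), without overlap. None of the 3 constitutive catalytic subunits passed, with a median of -0.15. Without CTCFL-KD replicate 1, 5 of the 6 and all 3 constitutive subunits were lower, where 23.7% of all genes were, so the difference in calls between immune and constitutive subunits rests on that library. With the length and GC correction, 5 of the 6 and 2 of the 3 were lower, where 22.2% of all genes were. Of 8 peptide-trimming enzymes, *TPP2*, a cytosolic peptidase (-0.90, adjusted p = 0.0117), and *LAP3*, an aminopeptidase (-0.83, adjusted p = 0.00509), fell (25.0%, where 16.8% of all genes fell), and the median was -0.12. Of the 8, 2 were higher and 3 lower without CTCFL-KD replicate 1, where 26.2% and 23.7% of all genes were.

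Of the 7 genes that fold the heavy chain and help to load it, 6 rose in CTCFL-KD (85.7%, where 21.4% of all genes rose), none fell and the median was 0.88. *TAPBPL*, the tapasin-related peptide editor, had 2.35, 3.34 and 2.63 CPM in Control, 3.19, 4.02 and 3.63 in the CTCFL-OE cells and 17.7, 13.1 and 12.3 in the CTCFL-KD cells. Its rise of 5.13-fold (log2 of 2.36 ± 0.23 SE, adjusted p = 3.26e-05) was the largest of the list. *PDIA3*, the disulphide isomerase ERp57 of the loading complex (1.30, adjusted p = 0.00217), and *GANAB*, a glucosidase subunit that trims heavy chain glycans (1.16, adjusted p = 0.00315), were DEGs as well. *HSPA5*, *CALR* and *UGGT1*, which encode the chaperones BiP and calreticulin and a glycoprotein folding sensor, rose by less (0.88, 0.80 and 0.70). Only *CANX*, calnexin, did not pass, with 778 to 854 CPM in Control and 878 to 1318 in CTCFL-KD, and without CTCFL-KD replicate 1 all 7 were higher, where 26.2% of all genes were. Without any single Control library 3 of the 7 were called, where 15.0% to 15.3% of all genes were called higher. *HSPA5*, *CALR* and *UGGT1* then lost their calls. These chaperones also fold many proteins other than class I.

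Among 15 other class I-like genes, 10 were measured above the filter, of which 4 rose and 1 fell in CTCFL-KD (where 21.4% and 16.8% of all genes did), with a median of 0.49. These counts were 3 and 1 without CTCFL-KD replicate 1, where 26.2% of all genes rose and 23.7% fell. They were 2 and 0 without any single Control library, where 15.0% to 15.3% rose and 10.8% to 11.5% fell. *FCGRT*, the heavy chain of the neonatal Fc receptor and a partner of B2M, had 9.17, 9.25 and 7.60 CPM in Control and 116, 55.2 and 55.7 in CTCFL-KD (log2 of 3.12 ± 0.33 SE, adjusted p = 6.06e-05, and 2.68 without CTCFL-KD replicate 1). *MR1*, which presents microbial metabolites and also pairs with B2M, rose by 1.33 (adjusted p = 0.00105). The NKG2D ligand genes were divided, with *ULBP1* (1.27, adjusted p = 0.0282) and *MICA* (0.99, adjusted p = 0.0354) higher and *MICB* (-0.83, adjusted p = 0.0433) lower. The counts of these 3 are less secure, as their calls held in 14, 12 and 14 of 20 alternatives. Of 12 class II genes, 5 were measured above the filter, and *HLA-DMA* (2.37, adjusted p = 0.0039), *HLA-DOB* (1.93, adjusted p = 0.00694) and *HLA-DRA* (1.92, adjusted p = 0.00615) rose, from low levels (60.0%, where 21.4% of all genes rose), as they did without CTCFL-KD replicate 1. Of the 7 class II genes tested without CTCFL-OE replicate 3 or without CTCFL-KD replicate 2, 5 were higher, where 20.9% and 20.6% of all genes were. *HLA-DRA* had 4, 14 and 11 counts in Control and 23, 25 and 28 in CTCFL-KD.

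Of the 14 genes of the class I enhanceosome and its regulators, 8 fell in CTCFL-KD (57.1%, where 16.8% of all genes fell), none rose and the median was -0.57. *NFKB1*, the p50 subunit of NF-kB, had 80.9, 87.6 and 85.4 CPM in Control, 57.0, 60.0 and 61.2 in the CTCFL-OE cells and 17.6, 35.9 and 38.0 in the CTCFL-KD cells (log2 of -1.47 ± 0.25 SE, adjusted p = 0.00127). *IRF2*, an interferon regulatory factor, fell by 1.05 (adjusted p = 0.000606) and *CREB1*, a factor of the CRE site, by 0.87 (adjusted p = 0.00701). *ATF1*, *RELA* and *NFYC* fell by 0.61, 0.53 and 0.49. *IRF1* had a log2 fold change of -0.36 and *CIITA*, the class II counterpart of *NLRC5*, of -0.41, and neither passed (adjusted p = 0.177 and 0.253). *IRF1* and *CIITA* are named for their roles and were picked after their values were seen. In the fit without CTCFL-KD replicate 1, 11 of the 14 were lower, where 23.7% of all genes were. Without any single Control library 5 of the 14 were lower, where 10.8% to 11.5% of all genes were, and *ATF1*, *RELA* and *NFYC* lost their calls.

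The interferon genes had no common direction in CTCFL-KD. In the interferon receptor pathway, *IFNGR1*, a receptor chain for interferon-gamma (0.62), and *STAT2* (0.58) rose, and the kinase *JAK1* (-0.95) fell, but *IFNGR1* and *STAT2* lost their calls without any single Control library. Of 18 interferon-stimulated genes above the filter, 4 rose and 8 fell (22.2% and 44.4%, where 21.4% and 16.8% of all genes did), with a median of -0.57. Leaving out CTCFL-KD replicate 1 gave 4 and 9, where 26.2% of all genes rose and 23.7% fell. The antiviral genes *MX2* (5.30, from 3, 3 and 5 counts to 64, 140 and 121), *MX1* (1.65) and *IFI6* (1.62) rose, while *BST2*, tetherin (-2.62), *GBP1* (-1.97) and *IFI27* (-1.78) fell. *BST2* had 40.3, 43.3 and 42.9 CPM in Control and 11.0, 5.53 and 4.33 in CTCFL-KD. In CTCFL-OE the chaperones had a median log2 fold change of 0.51 and the enhanceosome genes of -0.29, without a call in either list by edgeR on all 9 libraries. On the 2 groups alone, DESeq2 called 6 of the 7 chaperones higher but edgeR 1, and both called 1 of the 14 enhanceosome genes higher and 5 lower. DESeq2 then called 5.74% of 35917 genes, with no filter on low counts, higher and 4.77% lower, and edgeR 12.2% and 7.96% of the 17104 genes above the filter. In the edgeR fit on all 9 libraries a single gene over all 10 lists passed in CTCFL-OE, *IFIT1* (1.31, adjusted p = 0.0624), with 2.40, 2.02 and 2.94 CPM in Control and 8.76, 5.07 and 4.30 in CTCFL-OE. Its call was lost without any single Control library and without CTCFL-OE replicate 2. The number of list genes called in CTCFL-OE was 5 with DESeq2 on all 9 libraries, 30 with DESeq2 and 25 with edgeR on the 2 groups, and between 0 and 34 when each library was left out, with the most without CTCFL-KD replicate 1.

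**Figure D4:**
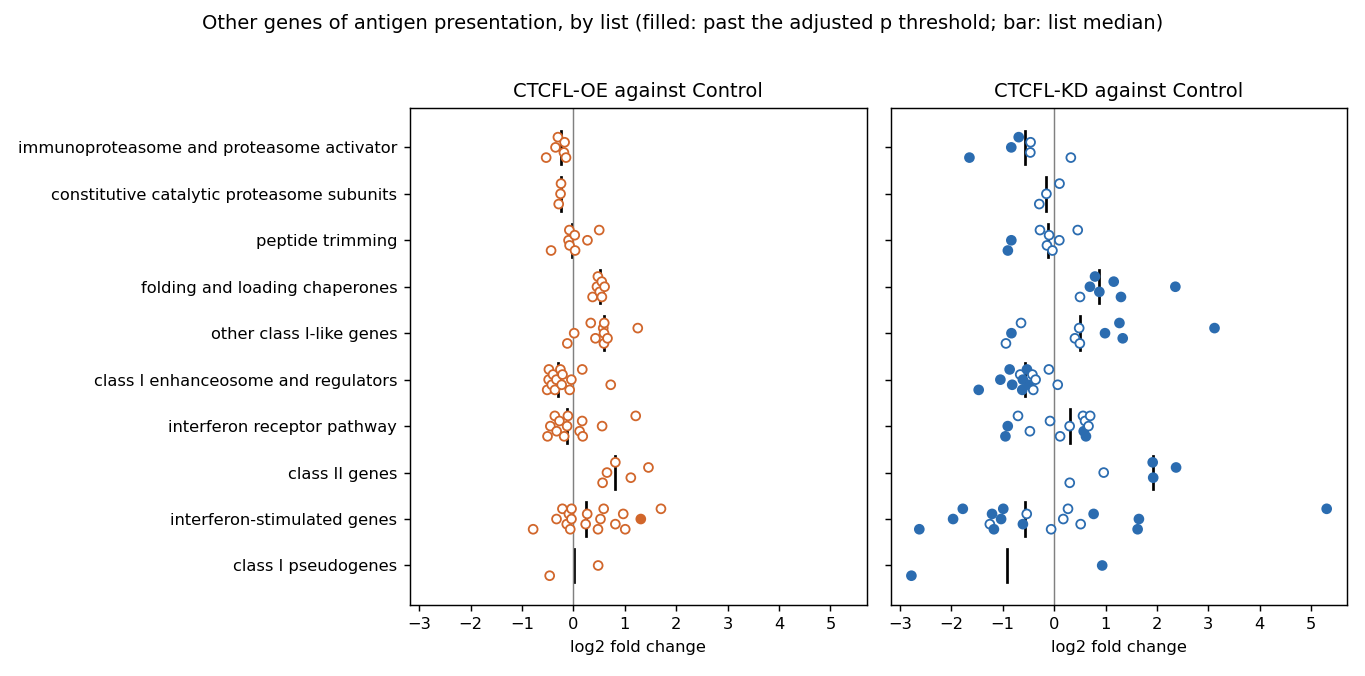
Log2 fold change against Control (horizontal axis) of the other genes of antigen presentation and interferon response, by list. Points are genes, filled where they passed the adjusted p threshold, and black bars are list medians; in CTCFL-KD the chaperones sit above 0 with 6 of 7 filled and the enhanceosome list mostly below 0 with 8 of 14 filled, while 1 gene, *IFIT1*, is filled in CTCFL-OE.

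Reads of the class I heavy chains are hard to assign, since these genes are polymorphic and resemble each other and several pseudogenes. Of 12 class I pseudogenes in the matrix, 2 were above the filter. Like *HLA-B* and *HLA-C*, *HLA-H* rose in CTCFL-KD (0.93, adjusted p = 0.049, held in 9 of 20 alternatives), with 5.11, 4.62 and 5.88 CPM in Control and 14.3, 6.72 and 8.98 in CTCFL-KD. *HLA-V* had 21, 32 and 19 counts in Control and 3, 2 and 2 in CTCFL-KD, a ratio of 0.138 from pooled counts with an exact interval of 0.0535 to 0.299 for counting error only. Exons of *HLA-B*, *HLA-F*, *TAP1* and *TAP2* overlap exons of other annotated genes in the matrix, and the strand setting of the counting is not given in the sources used here. The antisense genes held few counts: *HLA-F-AS1* had 4, 6 and 9 in Control and 0 in each CTCFL-KD library, and *PSMB8-AS1*, which overlaps *TAP1*, had between 1 and 9 in all 9 libraries.

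Across the MHC from *GABBR1* to *KIFC1* (chr6:29555629-33409896), a window set after these data were seen, 94 of the 149 other protein-coding genes passed the filter. In CTCFL-KD, 30 of them rose and 6 fell (31.9% and 6.38%, where 21.4% and 16.8% of all genes did), with a median log2 fold change of 0.46 against 0.08 over all genes. Of 97 such genes tested without CTCFL-KD replicate 1, 32 rose and 11 fell, with a median of 0.22, where 26.2% and 23.7% of all genes did. With the length and GC correction 20 of the 94 rose and 13 fell, with a median of 0.18, where 22.8% and 22.2% of all genes did, and the excess of higher calls over all genes was gone. Of 100 such genes tested without any single Control library, 15 to 20 rose and 3 to 4 fell. Of all genes, 15.0% to 15.3% then rose and 10.8% to 11.5% fell. In CTCFL-OE, 2 rose and 1 fell by edgeR on all 9 libraries, with a median of 0.08, and 23 rose and 4 fell without CTCFL-KD replicate 1, where 14.0% and 13.4% of all genes did. *B2M*, which rose, and *NLRC5*, which fell, lie outside this region.

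The genes most like *NLRC5* in log2 CPM over the 9 libraries, of 15363 searched, were *UPP1*, a uridine phosphorylase (Pearson's r = 0.9902), the pseudogene *ZBED10P* (0.9827) and *LRRC61* (0.9816). *UPP1* went from a mean of 38.7 CPM in Control to 48.1 in the CTCFL-OE cells and 13.0 in the CTCFL-KD cells. The genes most like the mean of the 4 heavy chains were *SERINC2* (0.9905), *ATP1B3*, a sodium pump subunit (0.9895), and *KLK10*, a kallikrein (0.9848). *SERINC2* had means of 28.5, 31.6 and 45.9 CPM in the 3 groups. Among the 9 genes, *HLA-E* and *TAPBP* ran most closely together (r = 0.969), *TAP1* and *TAP2* had an r of 0.941, and *HLA-C* and *NLRC5* an r of -0.731. These correlations share libraries and group differences, and are given as a description without a test. In bulk RNA, fewer cells with a transcript and less of it in each cell cannot be told apart.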

How the data were processed

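RNA-seq counts of 9 OVCAR3 libraries, 3 in each group, were grouped by their labels. Per the paper's methods and the labels, the authors sequenced mRNA in paired ends, trimmed the reads with Trimmomatic, aligned them with STAR to GRCh38 and counted them on genes (featureCounts of Rsubread, v1.32.4). The authors deposited raw counts per gene without normalization, and each of the 9 single-library files equalled its matrix column. The strand setting, the annotation release and the handling of multi-mapping reads are not given in the sources used here, and reads without molecular identifiers make intervals cover counting error only. The submitters' processing notes also name kallisto. GENCODE release 44 named 60419 of the 60660 genes.

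Counts were fitted with edgeR 4.0.16 in R 4.3.3 (filterByExpr, TMM, robust glmQLFit) to all 9 libraries with the group as the only factor, and compared by the quasi-likelihood test with Benjamini-Hochberg adjustment over 17794 genes. Called means an adjusted p under 0.1 in CTCFL-OE and under 0.05 elsewhere, and a DEG also had a log2 fold change beyond 1. The scripts were tested on simulated data. Tables and figures used Python 3.11.15, pandas 2.3.3, numpy 2.4.6 and matplotlib 3.10.9. Likeness used log2 CPM with a pseudocount of 0.5 among genes with a mean of at least 1 CPM. Alternatives were other scalings (RLE, upper quartile), filters, robust estimation off, DESeq2 1.42.0, fits on 2 groups, a replicate block, length and GC offsets, and each library left out. Control and CTCFL-KD libraries of the same number deviated together (r of 0.332, 0.185 and 0.232 over 13025 genes, and of 0.128, 0.136 and 0.109 with length and GC trends removed), while CTCFL-OE and Control libraries did not (-0.0425, 0.218 and -0.0518). Pairs by number were thus read from the data, and only the replicate block used them. The main fit and its p-values did not.

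All 9 genes were named. From each list, up to 3 called genes with the highest and 3 with the lowest log2 fold change were named, and 1 listed gene is not reported here. The genes and lists were chosen with earlier results of these data known.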

Additional observations from a re-analysis of the deposited data

How the results depend on the processing

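Of the 9 genes, *HLA-C* and *NLRC5* in CTCFL-KD kept their calls in all alternatives that gave a value. The number of the 9 genes called in CTCFL-KD was 5 and ranged from 2 to 6 when each library was left out, with 2 when any single Control library was left out and 6 without CTCFL-OE replicate 3. In CTCFL-OE it was 0 and ranged from 0 to 2, with 2 without CTCFL-OE replicate 1. In CTCFL-KD against CTCFL-OE it was 2 and ranged from 1 to 5, with 5 without CTCFL-OE replicate 3, and was 1 with at least 10 counts in every library (7 genes left), with DESeq2 on the 2 groups and with edgeR on the 2 groups. Of all genes, 21.4% rose and 16.8% fell in CTCFL-KD in the main fit. Without any single Control library 15.0% to 15.3% rose and 10.8% to 11.5% fell, and 20.9% and 16.2% did so without CTCFL-OE replicate 3. Over all genes, 561 were called in CTCFL-OE, but 1517 without the filter on low counts, 1374 with DESeq2 on all 9 libraries, 3773 with DESeq2 and 3450 with edgeR on the 2 groups, 1951 with the length and GC offsets and 1862 with those and the replicate block, and between 44 and 5040 when each library was left out, with the most without CTCFL-KD replicate 1. In CTCFL-KD against CTCFL-OE, 4771 were called, 2668 with edgeR on the 2 groups and between 3181 and 7297 when each library was left out. Apart from the calls of *HLA-B* in CTCFL-KD and of *B2M* in CTCFL-KD against CTCFL-OE (0.64, adjusted p = 0.0448 with the block and the offsets together), the replicate block changed no call of the 9 genes.

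Directions turned only for values that had not passed. *TAP1* in CTCFL-KD was 0.03 and became -0.047 without the filter, -0.012 with DESeq2 on all 9 libraries, -0.031 with DESeq2 on the 2 groups, -0.22 with the length and GC offsets and -0.24 with those and the replicate block, and ranged from -0.034 to 0.10 when each library was left out. *HLA-E* in CTCFL-OE became -0.0020 with the replicate block and the offsets. When each library was left out, *HLA-E* in CTCFL-OE ranged from -0.18 to 0.31, *B2M* from -0.12 to 0.45 and *TAPBP* from -0.14 to 0.42, each below 0 without CTCFL-OE replicate 3 alone, and *HLA-F* from -0.66 to 0.36 in CTCFL-OE, -0.37 to 0.19 in CTCFL-KD and -0.46 to 0.57 in CTCFL-KD against CTCFL-OE. Causes of these changes were not tested. Depth limits *HLA-F* and, in CTCFL-KD, *NLRC5* and *PSMB9*, which had fewer than 20 counts in each CTCFL-KD library. The shares of higher calls moved by less than 10 percentage points between scalings.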
